A study of Mus musculus with 16 samples.

Results

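The genes described here are 8 receptors and soluble ligands that macrophages use to recognise and take up apoptotic cells: Mertk, Axl, Tyro3, Gas6, Pros1, Timd4, Stab1 and Mfge8. The 8 genes were chosen with earlier results of these data known, and their probes were taken by gene symbol alone. Among 39319 probes for 30435 genes or unnamed features, 9 carried one of these symbols (2 of them Tyro3). All 8 genes passed the filter on dim probes, which asked for a signal well above background on at least 4 of 16 arrays, and all 8 stand among the 22098 genes or features tested.

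The study hybridised RNA of 4 sorted cell populations, with 4 arrays a population, to 16 single-colour mouse arrays from Agilent, all from C57BL/6 mice that had received no treatment. All 3 heart populations were live CD45+ cells gated as MerTK+, CD64+ and Ly6c-negative. CCR2+ macrophages (labelled CCR2+ Mac) were CCR2-high and MHC-II-high, MHC-IIHi macrophages (MHC-IIHi Mac) were CCR2-negative, MHC-II-high and CD11c-low, and MHC-IIlo macrophages (MHC-IIlo Mac) were CCR2-negative, CD11c-negative and MHC-II-low. The fourth population was Ly6cHi monocytes (Ly6cHi Mono) from blood, so tissue digestion and source differ together with cell type in every comparison with monocytes. Input was 1 ng of RNA per sample. The labels give no ages, sexes or number of mice and do not say that replicates came from separate mice, so the p-values measure only the spread between these samples.

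A dying cell exposes phosphatidylserine on its surface, and phagocytes find it in several ways. The TAM receptors Tyro3, Axl and Mertk are tyrosine kinases that bind it through soluble proteins, which bridge the dying cell and the receptor. These proteins are Gas6 for all of the receptors and protein S (Pros1) for some of them. Timd4 (TIM-4) and stabilin-1 (Stab1) bind phosphatidylserine directly, and Mfge8 bridges it to integrins. In the heart, resident macrophages clear dead cells and cell debris, and Timd4 is widely used as a marker of long-lived resident macrophages.

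Probe sequences are shown for the genes whose values differed between macrophage populations and for Tyro3, whose 2 probes disagreed. Each line gives the first 30 of 60 bases of the probe as the scanner files list it, with no base marked.
Timd4 probe A_52_P609868: acttcttttcacattcaagtttctttaaag
Gas6 probe A_51_P172054: tgggctagaggggctggcagtttgcagcag
Stab1 probe A_51_P232371: ctcaaggtcaaatgatgagctggaatgaag
Axl probe A_55_P2051414: ttgagtgtctgagattctaaaggtccacag
Tyro3 probe A_55_P2038252: atcaacattgagagagctgagcagcctact
Tyro3 probe A_55_P2038247: gcaggctcttgctgttaggaacatttctaa

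By RefSeq on GRCm38.p6, Timd4 lies at chr11:46810786-46844333, Gas6 at chr8:13465374-13494535, Stab1 at chr14:31139017-31168651 and Axl at chr7:25756500-25788924. Mertk lies at chr2:128698915-128803162, Tyro3 at chr2:119797740-119818104, Pros1 at chr16:62854307-62929346 and Mfge8 at chr7:79133768-79149060.

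Levels are given on the log2 scale as log2 of the processed signal minus that array's 75th percentile, so 0 is the 75th percentile of the array. Probes differ in brightness for the same amount of RNA, so levels are compared between populations for 1 probe at a time. A gene was called different in a comparison where limma's moderated test gave a Benjamini-Hochberg adjusted p under 0.05 over all 22098 genes or features. Between 58.1% and 69.3% of spots were well above background on macrophage arrays, against 52.8% to 60.1% on monocyte arrays, and the 75th percentile of the signal was 984 to 1740 against 846 to 1040. Both values were lowest in monocytes on every slide, and their part in the differences from monocytes was not tested. On all arrays 0 spots were saturated, and arrays of the same population correlated at 0.938 to 0.981. The replicate number is the slide, each slide holds 1 array of each population, and each population has the same position on all 4 slides, so position and population cannot be told apart. Groups were taken from the scanner files' own samples. The deposited value table was not used, because 12 of its 16 columns matched an array of another population best. Of 9 transcripts of gating proteins, 2 were higher in CCR2+ than in MHC-IIHi macrophages, 7 in CCR2+ than in MHC-IIlo macrophages and 3 in MHC-IIHi than in MHC-IIlo macrophages. Over all genes, 0.638% and 1.49% were higher in the first 2 comparisons, and 0.0679% passed in either direction in the third. The counts include transcripts of proteins gated alike in all heart populations. These were Ly6c1 (higher by 1.33 ± 0.28 and 1.20 ± 0.28 in the first 2 comparisons) and, against MHC-IIlo macrophages, the CD45 gene Ptprc (0.91 ± 0.19, SE, log2). Ccr2 was higher in CCR2+ than in MHC-IIHi macrophages by 3.87 ± 0.33 (SE) and in CCR2+ than in MHC-IIlo macrophages by 4.47 ± 0.33 on the log2 scale (limma, adjusted p = 2.27e-05 and 1.56e-06).

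**Figure D1:**
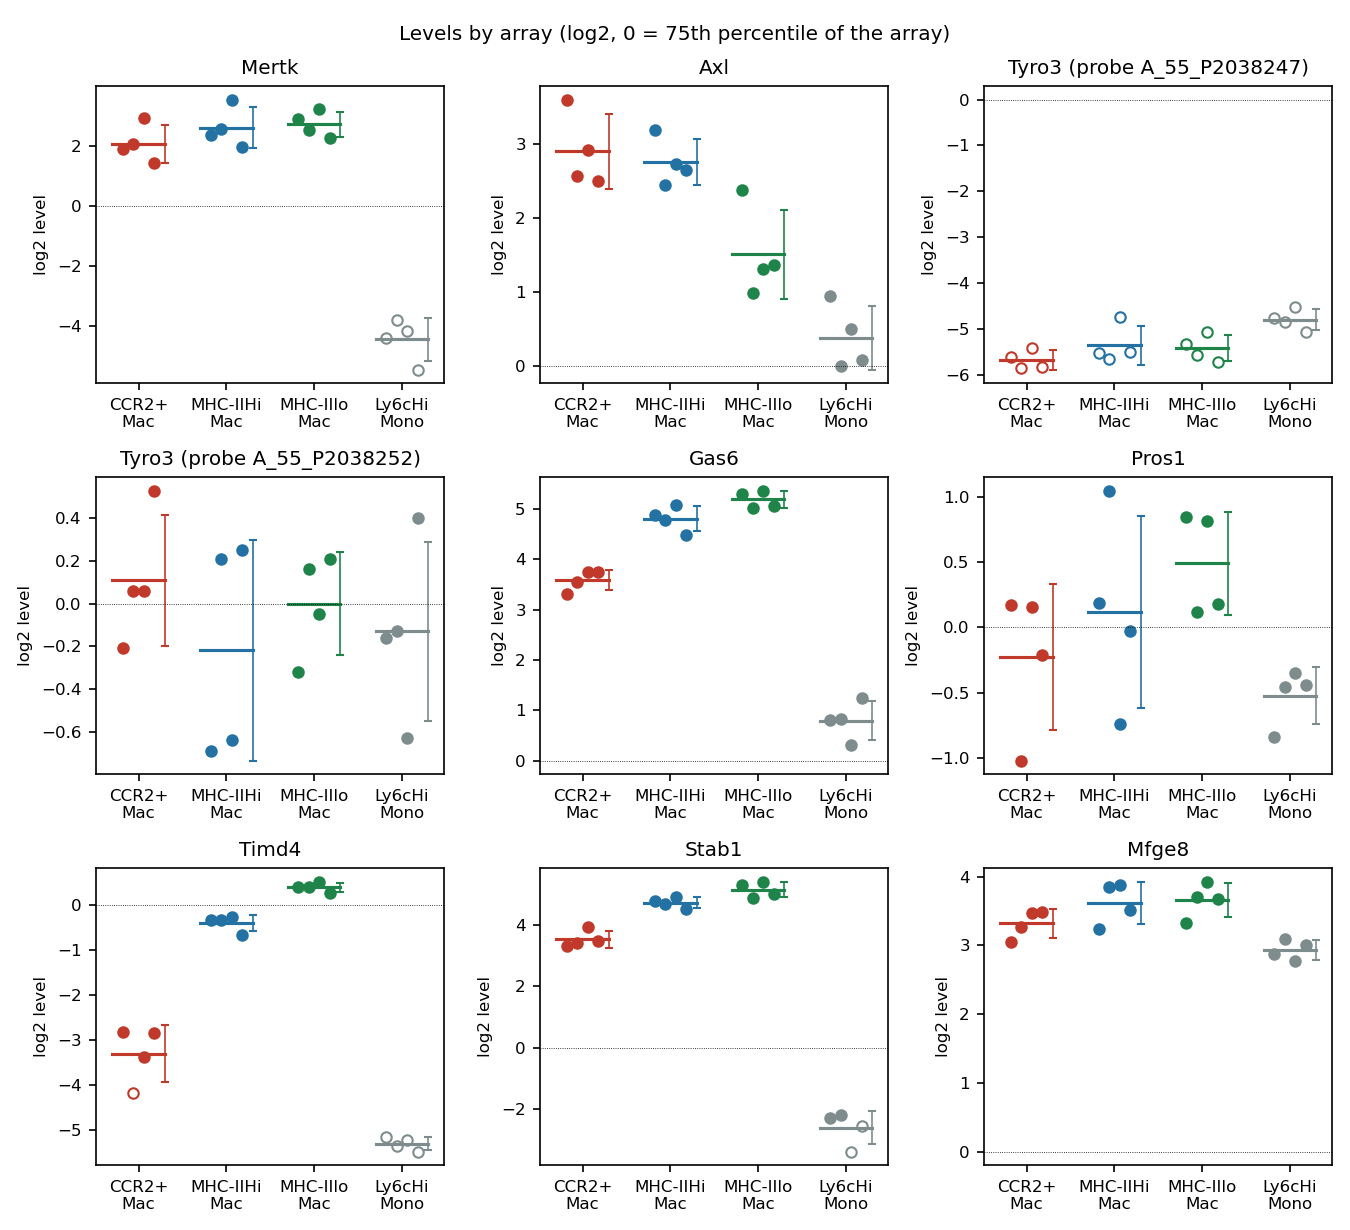
Levels of the 8 genes (9 probes) on every array, on the log2 scale with 0 at the array's 75th percentile. Filled points are arrays where the probe was well above background and open points those where it was not, ordered by replicate within a population; lines are means and bars SD over 4 arrays. Timd4, Gas6 and Stab1 are lowest among macrophages in the CCR2+ population, Axl is lowest among macrophages in the MHC-IIlo population, and all monocyte points of Mertk and Timd4 are open.

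Mertk, the TAM receptor that served as a sort gate for all heart populations, was read first as a check of the labels. Its level was 1.87, 2.06, 2.92 and 1.41 in CCR2+ macrophages, 2.36, 2.55, 3.53 and 1.94 in MHC-IIHi macrophages and 2.87, 2.53, 3.20 and 2.24 in MHC-IIlo macrophages, against -4.39, -3.79, -4.16 and -5.45 in monocytes. All macrophage arrays are high and all monocyte arrays are low, and on 0 of 4 monocyte arrays was the probe well above background. Against the lowest signal well above background on those arrays, Mertk exceeded monocytes at least 36.8-fold in CCR2+, at least 53.1-fold in MHC-IIHi and at least 57.6-fold in MHC-IIlo macrophages. Because the protein was gated, this contrast describes the sort.

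Among macrophages, where every population had passed the same MerTK gate, Mertk RNA did not differ past the threshold. The difference was -0.53 ± 0.41 (SE, 95% interval -1.41 to 0.35) for CCR2+ minus MHC-IIHi, -0.65 ± 0.41 (-1.52 to 0.23) for CCR2+ minus MHC-IIlo and -0.12 ± 0.41 (-0.99 to 0.76) for MHC-IIHi minus MHC-IIlo, on the log2 scale (limma, adjusted p = 0.804, 0.631 and 1). Mertk was lower in CCR2+ than in either CCR2-negative population on each of the 4 slides. Within slides the log2 difference lay between -0.62 and -0.49 against MHC-IIHi and between -1 and -0.28 against MHC-IIlo macrophages. In a fit with the slide as a block, neither difference passed (limma, adjusted p = 0.247 and 0.129). The populations overlapped across slides. The intervals come from the fit without the block and include the spread between slides. They allow CCR2+ macrophages a level anywhere from well below to slightly above the others.

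The clearest differences between macrophage populations were in 3 genes that were lowest in CCR2+ macrophages: the phosphatidylserine receptor Timd4, the TAM ligand Gas6 and the scavenger receptor Stab1. All 3 were lower than in MHC-IIHi macrophages and all 3 were lower than in MHC-IIlo macrophages. In the comparison with MHC-IIHi macrophages, 0 of 8 genes were higher by limma, at an unadjusted p under 0.05 as well, 3 were lower and 5 did not pass, where 0.638% of all genes tested were higher and 0.611% were lower. In the comparison with MHC-IIlo macrophages, 1 gene (Axl) was higher, 3 were lower and 4 did not pass, where 1.49% of all genes were higher and 1.27% were lower. The median difference over the 8 genes was -0.44 and -0.68 in these comparisons, beside -0.02 and -0.04 over all genes. Without the sort gate Mertk, the medians over 7 genes were -0.34 and -0.72. Both comparisons share the same CCR2+ arrays.

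Timd4 showed the largest difference of the 8 genes between macrophage populations. Its level was -2.82, -4.18, -3.38 and -2.85 in CCR2+ macrophages, against -0.33, -0.33, -0.27 and -0.66 in MHC-IIHi and 0.39, 0.39, 0.52 and 0.27 in MHC-IIlo macrophages. No CCR2+ array reached any array of the other macrophages, and on 3 of 4 CCR2+ arrays the probe was well above background. Timd4 was lower in CCR2+ macrophages than in MHC-IIHi macrophages by a log2 difference of -2.91 ± 0.25 (SE, limma, adjusted p = 2.27e-05), with slides between -3.86 and -2.19. Against MHC-IIlo macrophages the log2 difference was -3.70 ± 0.25 (limma, adjusted p = 9.64e-07), which is 13.0-fold lower in CCR2+ macrophages. Normexp background correction made both differences smaller, -2.06 and -2.76, and both stayed past the threshold.

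Gas6, the ligand of all TAM receptors, followed the same order. Its level was 3.32, 3.55, 3.75 and 3.74 in CCR2+ macrophages, against 4.89, 4.78, 5.08 and 4.49 in MHC-IIHi and 5.30, 5.03, 5.37 and 5.07 in MHC-IIlo macrophages. The CCR2+ arrays lie apart from both other populations. The log2 difference was -1.22 ± 0.21 for CCR2+ minus MHC-IIHi and -1.60 ± 0.21 for CCR2+ minus MHC-IIlo (SE, limma, adjusted p = 0.00774 and 0.000383), or 2.32-fold and 3.03-fold lower in CCR2+ macrophages.

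Stab1, a large multidomain receptor of resident macrophages and sinusoidal endothelium, had levels of 3.31, 3.43, 3.93 and 3.47 in CCR2+ macrophages, against 4.80, 4.69, 4.93 and 4.52 in MHC-IIHi and 5.32, 4.90, 5.43 and 5.02 in MHC-IIlo macrophages. The CCR2+ arrays again do not overlap with the others. The log2 difference was -1.63 ± 0.25 for CCR2+ minus MHC-IIlo (SE, limma, adjusted p = 0.00134) and -1.20 ± 0.25 for CCR2+ minus MHC-IIHi (adjusted p = 0.0259). The call against MHC-IIHi macrophages is the less secure: it was lost with scaling to each array's median (adjusted p = 0.0766) and when CCR2+ replicate 1, 2 or 4 or MHC-IIHi replicate 1, 2 or 3 was left out (adjusted p between 0.0624 and 0.0951), with differences between -1.21 and -1.12.

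**Figure D2:**
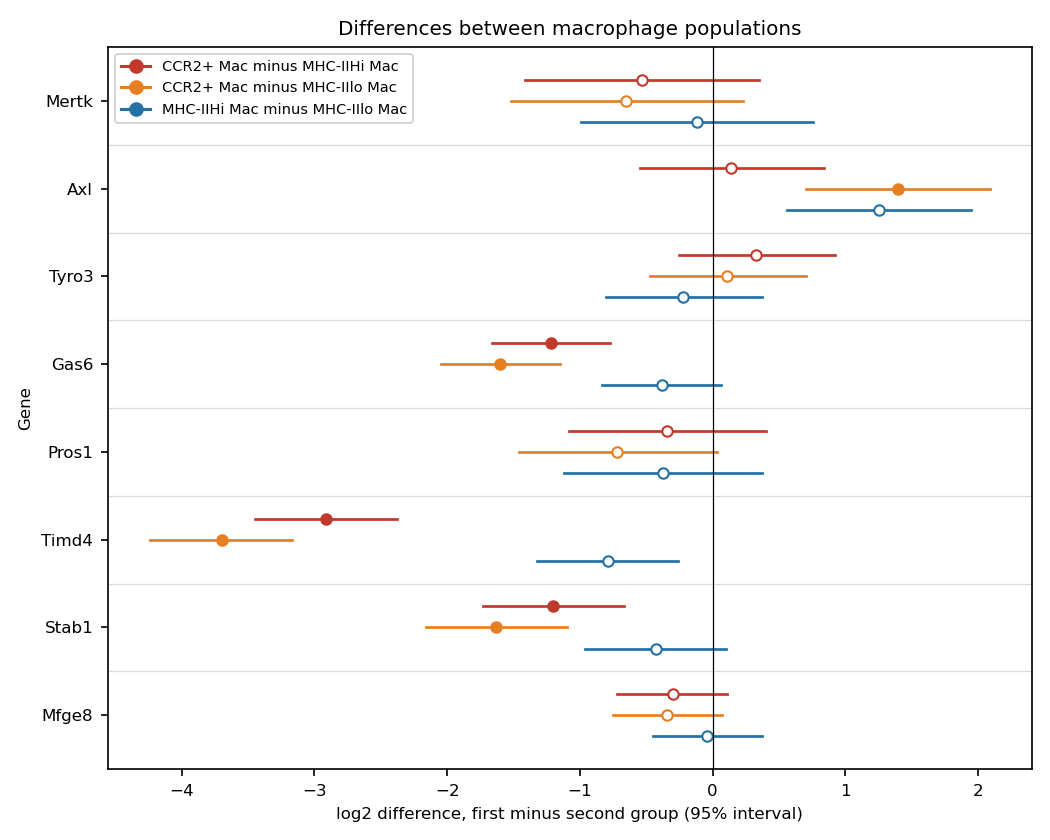
Log2 differences between macrophage populations (x axis, first minus second population) for the 8 genes, with 95% intervals from the limma fit. Filled points have an adjusted p under 0.05 over all genes. The filled points are Timd4, Gas6 and Stab1 on the negative side for CCR2+ against both other populations and Axl on the positive side for CCR2+ against MHC-IIlo.

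Most transcripts of Ly6c-high monocytes moved in the opposite sense to these 3 genes, with 6 of 7 differences positive in each comparison. Of 7 such markers tested, 4 were higher in CCR2+ than in MHC-IIHi macrophages and 4 were higher in CCR2+ than in MHC-IIlo macrophages. Besides the gate Ccr2, Plac8 was higher by 3.05 ± 0.56 and 3.16 ± 0.56 on the log2 scale (SE, against MHC-IIHi and MHC-IIlo). Chil3 was higher by 2.86 ± 0.66 and 3.32 ± 0.66, and Ly6c1, also among the gate transcripts, by 1.33 ± 0.28 and 1.20 ± 0.28. With the slide as a block, Chil3 no longer passed against MHC-IIHi macrophages (adjusted p = 0.0587). The summed log2 level of the whole monocyte list overlapped between populations, at 6.72 to 7.07 in CCR2+, 6.87 to 7.23 in MHC-IIHi and 6.76 to 7.33 in MHC-IIlo macrophages. That sum is mostly Itgam, by far the brightest marker, with mean levels of 6.73, 7.02 and 7.04 in the same order. Itgam was the 1 marker with negative differences, -0.29 ± 0.18 and -0.31 ± 0.18 (SE, limma, adjusted p = 0.692 and 0.576). The sum therefore says little of the other markers. The part of these transcripts in the result was not tested. In a sorted population of many cells, fewer cells with a transcript and less of it per cell cannot be told apart.

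Of 9 cardiomyocyte, 9 endothelial and 5 fibroblast markers tested, 0 passed in either comparison with CCR2+ macrophages by limma (unadjusted p under 0.05 for 1, 2 and 1 of them against each of the other populations), and with the slide as a block the fibroblast gene Dcn was lower in CCR2+ than in MHC-IIlo macrophages (adjusted p = 0.0291). Most of these differences had 1 sign: the 9 cardiomyocyte markers were all negative for CCR2+ minus MHC-IIHi (median -0.54 on the log2 scale) and 8 of 9 for CCR2+ minus MHC-IIlo (median -0.32), and the 9 endothelial markers were all positive for CCR2+ minus MHC-IIHi (median 0.55) and 8 of 9 for CCR2+ minus MHC-IIlo (median 0.51). Their part in the members' differences was not tested. The dendritic cell list had 1 of 5 genes higher in CCR2+ macrophages in both comparisons. That gene was Cd209a, by 2.75 ± 0.62 against MHC-IIHi and 2.53 ± 0.62 against MHC-IIlo macrophages on the log2 scale (SE, limma, adjusted p = 0.0412 and 0.0384). Of the remaining lists, 1 of 5 neutrophil markers (Mmp9) and 1 of 3 erythroid markers (Epor) were lower in CCR2+ macrophages in both comparisons, 1 of 5 smooth muscle and pericyte markers (Cspg4) was higher against MHC-IIHi macrophages, and 0 of 6 macrophage, 5 platelet and 4 lymphocyte markers passed (1, 0 and 0 at an unadjusted p against MHC-IIHi and 4, 1 and 0 against MHC-IIlo macrophages). Fitted with the slide as a block, 2 of the 6 macrophage markers were lower in CCR2+ than in MHC-IIlo macrophages, Mrc1 (difference -1.13, adjusted p = 0.00703) and Csf1r (-0.52, adjusted p = 0.0131), and Cspg4 was higher (1.09, adjusted p = 0.0395).

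Axl had a different pattern from Timd4, Gas6 and Stab1. This TAM receptor, a Gas6-dependent kinase often raised in activated myeloid cells, was lowest among macrophages in the MHC-IIlo population. Its level was 3.61, 2.57, 2.93 and 2.51 in CCR2+ and 3.20, 2.45, 2.74 and 2.66 in MHC-IIHi macrophages, against 2.38, 0.98, 1.31 and 1.36 in MHC-IIlo macrophages. Every MHC-IIlo array is below every array of the other macrophages, but the highest of them, on slide 1, lies just under the lowest MHC-IIHi array. Axl was highest on slide 1 in all 4 populations. Axl was higher in CCR2+ than in MHC-IIlo macrophages by 1.40 ± 0.33 on the log2 scale (SE, 2.63-fold, limma, adjusted p = 0.0294), with slides between 1.15 and 1.62. With the slide as a block the adjusted p was 0.000107. Without the block this call was lost with median scaling, in a fit of only these populations, and without CCR2+ replicate 1 or 3 or MHC-IIlo replicate 2, 3 or 4, with adjusted p between 0.077 and 0.121 and differences between 1.16 and 1.42.

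Between MHC-IIHi and MHC-IIlo macrophages 0 of 8 genes passed by limma, where 0.0679% of all genes did, and 2 genes (Axl and Timd4) had an unadjusted p under 0.05. Axl was higher in MHC-IIHi macrophages on all 4 slides, by 1.25 ± 0.33 on average (SE, log2, 95% interval 0.56 to 1.95, limma, adjusted p = 0.388). With the slide as a block, Axl passed (adjusted p = 0.00438) and 1 of 8 genes was called, and with array weights it passed too (adjusted p = 0.0204). Timd4 was lower in MHC-IIHi macrophages on all 4 slides, by a log2 difference of -0.79 ± 0.25 (95% interval -1.32 to -0.26), with no overlap between arrays and an adjusted p of 0.720, or 0.323 with the block. Gas6 and Stab1 had differences of -0.38 ± 0.21 (-0.83 to 0.06) and -0.43 ± 0.25 (-0.96 to 0.10), negative on all 4 slides, with an adjusted p of 1 for both. The order of Timd4, Gas6 and Stab1 from low to high was therefore CCR2+, MHC-IIHi and MHC-IIlo on each slide, and only the step between CCR2+ and the others passed the test.

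**Figure D3:**
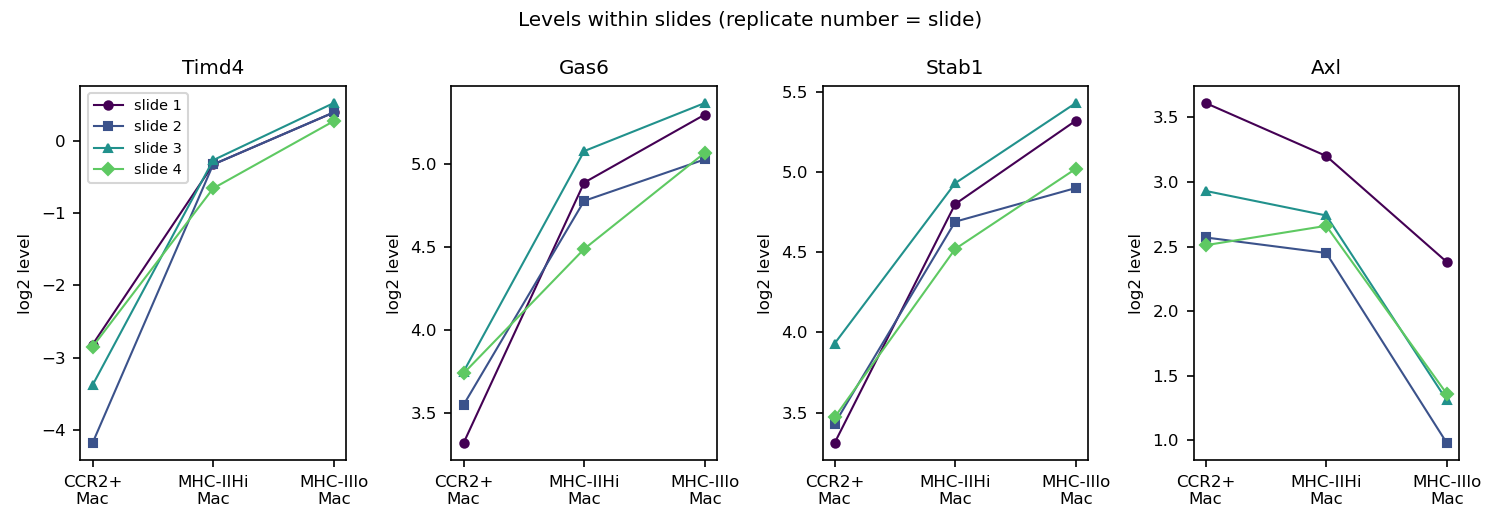
Log2 levels of Timd4, Gas6, Stab1 and Axl in the 3 macrophage populations, with lines joining the arrays of 1 slide (replicate number). Timd4, Gas6 and Stab1 are lowest in CCR2+ and highest in MHC-IIlo macrophages on each slide, and Axl is lowest in MHC-IIlo macrophages on each slide.

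None of the remaining genes passed the threshold between macrophage populations. Mfge8, the integrin bridging ligand, had levels of 3.05 to 3.49 in CCR2+, 3.24 to 3.88 in MHC-IIHi and 3.33 to 3.93 in MHC-IIlo macrophages. Its differences were -0.30 ± 0.19 (95% interval -0.72 to 0.11), -0.34 ± 0.19 (-0.75 to 0.07) and -0.04 ± 0.19 (-0.45 to 0.37) for CCR2+ minus MHC-IIHi, CCR2+ minus MHC-IIlo and MHC-IIHi minus MHC-IIlo. None passed (limma, adjusted p = 0.717, 0.563 and 1), and the intervals exclude a log2 difference of 1 in either direction.

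Pros1, the second TAM ligand and a plasma anticoagulant cofactor, spread more between arrays of 1 population. It ran from -1.02 to 0.17 in CCR2+, from -0.74 to 1.05 in MHC-IIHi and from 0.12 to 0.85 in MHC-IIlo macrophages. The difference furthest from 0 among macrophages was -0.72 ± 0.35 for CCR2+ minus MHC-IIlo (SE, 95% interval -1.46 to 0.03, limma, adjusted p = 0.457), with all 4 slides negative.

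Tyro3, the third TAM receptor, depends on the probe. Probe A_55_P2038252 was well above background on every array, with levels of -0.21 to 0.53 in CCR2+, -0.69 to 0.25 in MHC-IIHi and -0.32 to 0.21 in MHC-IIlo macrophages, against -0.63 to 0.40 in monocytes. It passed in none of the 6 comparisons (limma, adjusted p between 0.61 and 1), with differences between -0.22 and 0.33 and 95% intervals that all lie between -0.80 and 0.92. Probe A_55_P2038247, whose start the scanner files place at base 3907 of the same transcript against base 2658 for the first probe, was well above background on 0 of 16 arrays. The Tyro3 values therefore rest on 1 of 2 probes that do not read alike.

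Against blood monocytes, most of these genes were higher in heart macrophages and 0 were lower by limma, at an unadjusted p under 0.05 as well. Of 8 genes, 5 were higher in CCR2+, 6 in MHC-IIHi and 6 in MHC-IIlo macrophages, where 9.95%, 10% and 10.1% of all genes tested were higher and 11.8%, 11.4% and 11.2% were lower. Mertk, Axl, Gas6, Timd4 and Stab1 passed in all 3 comparisons, and Mfge8 passed for both CCR2-negative populations. The median difference was 2.26, 3.20 and 2.77 on the log2 scale, or 1.45, 2.56 and 2.33 with the genes below background in monocytes set at their bounds, beside -0.09, -0.05 and -0.06 over all genes. MerTK protein was part of the gate of the heart populations, and without Mertk 4, 5 and 5 of 7 genes were higher, with medians of 2.00, 2.38 and 1.13, or 0.38, 2.38 and 1.13 at the bounds. The 3 comparisons share the 4 monocyte arrays.

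Stab1 was far lower in monocytes. Its monocyte levels were -2.31, -2.20, -3.40 and -2.58, with the probe well above background on 2 of 4 arrays, and all are far below the macrophage arrays. The log2 difference was 6.16 ± 0.25 for CCR2+, 7.36 ± 0.25 for MHC-IIHi and 7.79 ± 0.25 for MHC-IIlo macrophages (SE, limma, adjusted p = 2.88e-10, 2.88e-11 and 1.75e-11). Since 2 of the 4 monocyte arrays were not well above background, these sizes are only loosely set.

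Gas6 was well above background in monocytes, at 0.80, 0.82, 0.30 and 1.24, and lower there than on any macrophage array. It was higher by 2.80 ± 0.21 in CCR2+, 4.02 ± 0.21 in MHC-IIHi and 4.40 ± 0.21 in MHC-IIlo macrophages on the log2 scale (SE, limma, adjusted p = 1.51e-07, 1.89e-09 and 6.01e-10). These are 6.98-fold, 16.2-fold and 21.2-fold.

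Timd4 was well above background on 0 of 4 monocyte arrays, where it read -5.16, -5.36, -5.23 and -5.48. It was at least 6.69-fold higher in MHC-IIHi (limma, adjusted p = 1.5e-09) and at least 11.6-fold higher in MHC-IIlo macrophages (adjusted p = 2.57e-10) than in monocytes. For CCR2+ macrophages the test passed (adjusted p = 3.7e-05), but their mean lies under the lowest signal well above background on the monocyte arrays, so no fold is given. That call was lost with normexp background correction, with a log2 difference of 0.37 and an adjusted p of 0.359.

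Axl had monocyte levels of 0.94, 0.00, 0.50 and 0.08, below every macrophage array. It was higher by 2.52 ± 0.33 in CCR2+, 2.38 ± 0.33 in MHC-IIHi and 1.13 ± 0.33 in MHC-IIlo macrophages on the log2 scale (SE, limma, adjusted p = 4.97e-05, 6.32e-05 and 0.0208). The smallest of these, for MHC-IIlo macrophages, was lost with median scaling (adjusted p = 0.0969), in a fit of only these populations (0.0541), and without MHC-IIlo replicate 1 or monocyte replicate 2 or 4 (0.0595 to 0.0622). Its size without MHC-IIlo replicate 1 was 0.84.

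Mfge8, bright in monocytes too at 2.87, 3.10, 2.77 and 3.00, was higher by 0.69 ± 0.19 in MHC-IIHi and by 0.73 ± 0.19 in MHC-IIlo macrophages on the log2 scale (SE, limma, adjusted p = 0.0184 and 0.013). For CCR2+ macrophages the difference was 0.38 ± 0.19 (95% interval -0.03 to 0.80, adjusted p = 0.187), and it passed with quantile normalization (0.68, adjusted p = 0.0274) and with normexp (0.60, adjusted p = 0.0336). The MHC-IIHi call was lost in a fit of only these populations and without MHC-IIHi replicate 2 or 3 or monocyte replicate 3, with adjusted p between 0.0544 and 0.0627.

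Pros1 was at the edge of the test for MHC-IIlo macrophages, with a log2 difference of 1.02 ± 0.35 (SE, 95% interval 0.27 to 1.76, limma, adjusted p = 0.0503), positive on 4 of 4 slides and with no overlap with the monocyte levels of -0.84, -0.46, -0.35 and -0.44. Under 4 alternatives it passed, with adjusted p between 0.0229 and 0.0491, and with the slide as a block it did not (adjusted p = 0.0607). For CCR2+ and MHC-IIHi macrophages the differences were 0.30 ± 0.35 and 0.64 ± 0.35, with intervals that include 0.

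**Figure D4:**
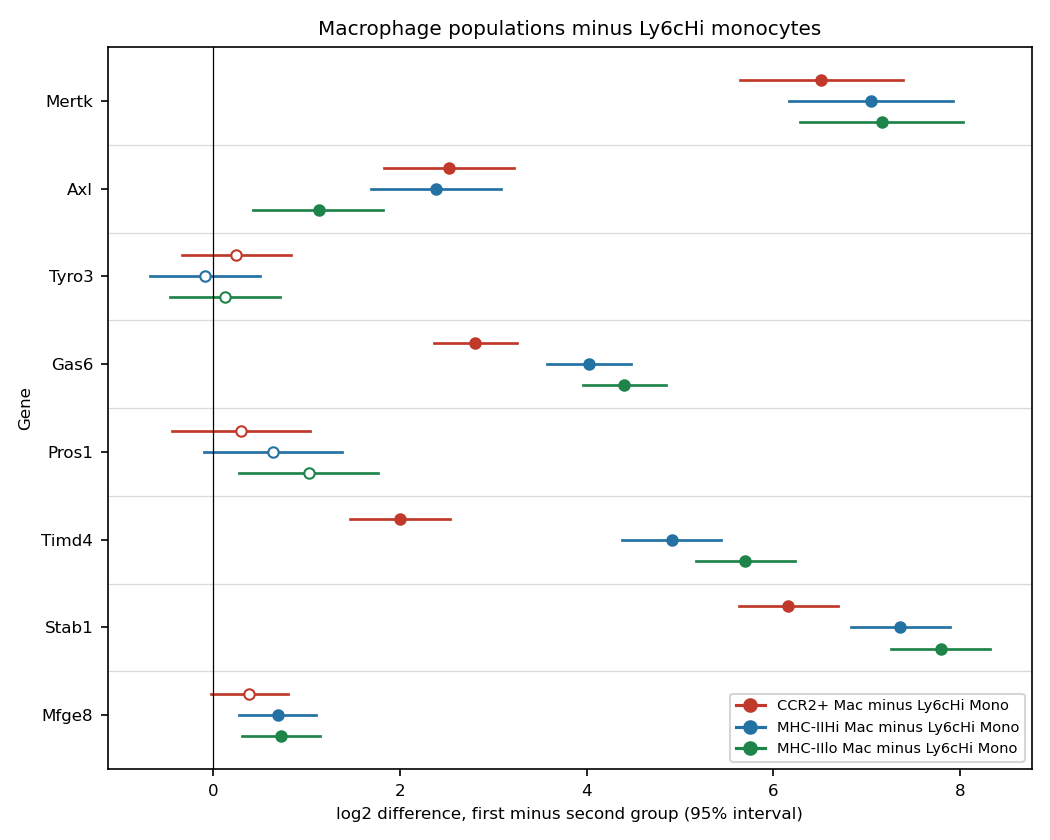
Log2 differences between each macrophage population and Ly6cHi monocytes (x axis, macrophage minus monocyte) for the 8 genes, with 95% intervals from the limma fit. Filled points have an adjusted p under 0.05 over all genes. Mertk and Timd4 were not well above background in monocytes, so the points of these genes are fitted values, not bounds; Tyro3 and Pros1 have open points in all 3 comparisons.

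Transcripts of other heart cells were also higher in the macrophage samples than in blood monocytes. Of 9 cardiomyocyte markers tested, 8 were higher in CCR2+, 9 in MHC-IIHi and 9 in MHC-IIlo macrophages, and the summed log2 level over 10 such genes was 4.33 to 4.95, 4.67 to 5.27 and 4.50 to 5.12 in these populations, against 1.33 to 1.71 in monocytes. Ryr2 was well above background on 0 arrays. Of 5 fibroblast markers tested, 3 were higher in each macrophage population, among them the collagen-binding proteoglycan Dcn at least 20.8-fold, 36.6-fold and 43.9-fold. The summed fibroblast level over 8 genes was 1.94 to 3.39 in CCR2+, 2.27 to 3.27 in MHC-IIHi and 2.90 to 3.38 in MHC-IIlo macrophages, against 0.33 to 0.57 in monocytes, and Pdgfra was well above background on 0 arrays.

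Of 9 endothelial markers tested, 5, 3 and 3 were higher in CCR2+, MHC-IIHi and MHC-IIlo macrophages, and 8, 4 and 4 with the slide as a block. Their summed log2 level over 10 genes was 2.60 to 3.32, 2.34 to 3.11 and 2.38 to 2.94 in these populations, against 1.66 to 2.21 in monocytes, and Cdh5 was well above background on 0 arrays. Of the macrophage list 3 of 6 genes were higher and of the Ly6c-high monocyte list 6 of 7 were lower in each macrophage population. With the block, 4, 3 and 5 of the macrophage list were higher in CCR2+, MHC-IIHi and MHC-IIlo macrophages. Of 3 erythroid genes tested, Hba-a1 and Alas2 were lower in each, and Epor was higher, by at least 2.24-fold, 7.03-fold and 7.95-fold in CCR2+, MHC-IIHi and MHC-IIlo macrophages. Gas6, Axl, Mfge8, Pros1 and Stab1 are known to be made by fibroblasts, endothelium or other tissue cells as well. The heart populations were sorted as live CD45+, MerTK+ and CD64+ cells. The part of fibroblasts, endothelium or other tissue cells in the differences from monocytes was not tested.

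Genes that share the task were read from 5 lists. Over all genes tested, 0.638% were higher and 0.611% lower in CCR2+ than in MHC-IIHi macrophages. Against MHC-IIlo macrophages these shares were 1.49% and 1.27%. Against monocytes, 9.95%, 10% and 10.1% were higher and 11.8%, 11.4% and 11.2% lower in CCR2+, MHC-IIHi and MHC-IIlo macrophages. Of 18 other apoptotic-cell receptors tested, 2 were higher and 0 lower in CCR2+ than in MHC-IIHi macrophages by limma (4 in either direction at an unadjusted p), and 2 were higher and 1 lower in CCR2+ than in MHC-IIlo macrophages. The median differences were 0.12 and 0.13. Cd300lb and Cd300lf, receptors of the CD300 family that bind phosphatidylserine or other lipids, were the higher ones. Cd300lb was higher by 1.60 ± 0.26 and 1.66 ± 0.26, and Cd300lf by 1.47 ± 0.31 and 2.30 ± 0.31 (SE, log2, against MHC-IIHi and MHC-IIlo macrophages). The scavenger receptor Msr1 was lower in CCR2+ than in MHC-IIlo macrophages, by a log2 difference of -1.03 ± 0.22 (SE, limma, adjusted p = 0.0193). With the slide as a block, Msr1 was also lower than in MHC-IIHi macrophages (adjusted p = 0.00539).

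Against monocytes, 3 of these 18 receptors were higher and 3 lower in CCR2+, 3 higher and 4 lower in MHC-IIHi, and 4 higher and 4 lower in MHC-IIlo macrophages. The medians were -0.13, -0.17 and -0.29, or -0.13, -0.08 and -0.29 with genes below background at their bounds. The endotoxin co-receptor Cd14 was higher by 3.84 ± 0.41, 3.56 ± 0.41 and 3.29 ± 0.41 in CCR2+, MHC-IIHi and MHC-IIlo macrophages. The fatty acid transporter Cd36 was higher by 2.08 ± 0.36, 2.22 ± 0.36 and 2.98 ± 0.36, and the lipoprotein receptor Scarb1 was lower, with differences of -2.66 ± 0.30, -2.74 ± 0.30 and -2.91 ± 0.30 (SE, log2).

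Of 9 other bridging ligands tested, 2 were higher in CCR2+ than in MHC-IIHi macrophages, 1 was higher in CCR2+ than in MHC-IIlo macrophages, and 0 were lower in either comparison by limma (2 and 4 of the 9 passed at an unadjusted p in either direction), with medians of 0.03 and -0.08. With the slide as a block, Anxa1 was higher and C1qc lower in CCR2+ than in MHC-IIlo macrophages as well (adjusted p = 0.00626 and 0.0259), and Anxa1 was lower in MHC-IIHi than in MHC-IIlo macrophages (0.00483). Lgals3 (galectin-3) was higher in both, by 1.33 ± 0.19 and 0.88 ± 0.19 on the log2 scale (SE, limma, adjusted p = 0.00159 and 0.0163), and Anxa1 (annexin A1) was higher than in MHC-IIHi macrophages by 1.49 ± 0.26 (adjusted p = 0.0075). The complement genes C1qa, C1qb and C1qc had differences of -0.49, -0.23 and -0.35 for CCR2+ minus MHC-IIHi and -0.63, -0.40 and -0.52 for CCR2+ minus MHC-IIlo, and Anxa1 had 0.60 for CCR2+ minus MHC-IIlo (adjusted p = 0.341), none of which passed without the block.

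Against monocytes, 4 of the 9 ligands were higher and 2 were lower in each macrophage population, with medians of 0.17, 0.09 and 0.26. The complement subunits C1qa, C1qb and C1qc, which coat dying cells, led the higher ones: C1qc was well above background on 0 monocyte arrays and was at least 187-fold, 238-fold and 268-fold higher in CCR2+, MHC-IIHi and MHC-IIlo macrophages. The 2 lower genes were Anxa1 and Lgals3 in each of the 3 macrophage populations. Among the largest called differences, Anxa1 had log2 differences of -1.05 ± 0.26 in CCR2+ and -2.54 ± 0.26 in MHC-IIHi macrophages. Lgals3 had a difference of -1.66 ± 0.19 in MHC-IIlo macrophages (SE).

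Of 15 genes of the engulfment machinery tested, 0 passed between CCR2+ and MHC-IIHi macrophages by limma (3 at an unadjusted p under 0.05, and 1 higher and 1 lower with the slide as a block), and 1 was lower in CCR2+ than in MHC-IIlo macrophages. That gene was Ptk2 (focal adhesion kinase), with a log2 difference of -1.43 ± 0.35 (SE, limma, adjusted p = 0.0367). Against monocytes, 2 were higher in each macrophage population, and 5, 5 and 4 were lower in CCR2+, MHC-IIHi and MHC-IIlo macrophages. The cholesterol exporter Abca1 was at least 9.47-fold, 16.3-fold and 19.7-fold higher, and its relative Abca7 was lower, with log2 differences of -1.69 ± 0.21, -2.19 ± 0.21 and -2.07 ± 0.21. The medians of this list were -0.05 and 0.03 in the comparisons of CCR2+ with other macrophages and -0.28, -0.23 and -0.17 against monocytes.

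Of 8 genes that restrain uptake or cytokine signalling or shed receptors, 1 was higher in CCR2+ than in each other macrophage population. It was Cd24a, a surface protein that inhibits phagocytosis, at least 3.27-fold higher than in MHC-IIHi and at least 3.30-fold higher than in MHC-IIlo macrophages, in both of which it was well above background on 0 of 4 arrays. The medians were 0.19 and 0.36. Against monocytes, 2 were higher in each macrophage population, the cytokine signalling inhibitors Socs3 and Socs1, and 2, 3 and 3 were lower, with medians of -0.56, -0.54 and -0.71. Adam17, a protease that cleaves Mertk from the cell surface, was among the lower ones, with a log2 difference of -0.71 ± 0.22 (SE) in CCR2+ macrophages. Cd24a was lower than in monocytes in the CCR2-negative populations, at least 5.48-fold in MHC-IIHi and at least 5.53-fold in MHC-IIlo macrophages. Cd47, the ligand of the inhibitory receptor Sirpa, was lower in CCR2+, MHC-IIHi and MHC-IIlo macrophages, with differences of -0.77 ± 0.19, -0.82 ± 0.19 and -0.91 ± 0.19.

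Of 10 transcription factors tied to these genes, 0 passed between CCR2+ and MHC-IIHi macrophages by limma (4 at an unadjusted p under 0.05, and 2 higher with the slide as a block). Maf, a factor of resident macrophages, was lower in CCR2+ than in MHC-IIlo macrophages, with a log2 difference of -0.99 ± 0.24 (SE, limma, adjusted p = 0.0394), and was the 1 gene of 10 that passed there. With the slide as a block, 3 were higher and 4 were lower in that comparison. The medians were -0.10 and 0.08. Maf was also higher in macrophages than in monocytes, by 3.12 ± 0.24, 3.75 ± 0.24 and 4.11 ± 0.24 in CCR2+, MHC-IIHi and MHC-IIlo macrophages. Against monocytes 2, 2 and 2 factors were higher and 1, 1 and 2 were lower, with medians of -0.22, -0.16 and 0.01. Between MHC-IIHi and MHC-IIlo macrophages 0 genes of any of the 5 lists passed by limma, with 2, 2, 0, 0 and 0 at an unadjusted p under 0.05 in the order the lists are described here.

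The promoters of the 3 genes that were lower together in CCR2+ macrophages are shown because the genes moved together. Each line gives the 250 bases before the RefSeq start of 1 transcript on GRCm38.p6, 5′ to 3′ on the gene's strand, and capitals mark a match to one of the motifs searched.
Timd4, chr11:46810549-46810798, plus strand: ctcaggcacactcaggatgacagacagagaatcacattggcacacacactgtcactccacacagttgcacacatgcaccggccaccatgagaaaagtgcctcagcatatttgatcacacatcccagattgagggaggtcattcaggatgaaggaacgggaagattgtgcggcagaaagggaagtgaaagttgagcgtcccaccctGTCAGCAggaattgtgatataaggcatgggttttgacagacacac
Gas6, chr8:13494536-13494785, minus strand: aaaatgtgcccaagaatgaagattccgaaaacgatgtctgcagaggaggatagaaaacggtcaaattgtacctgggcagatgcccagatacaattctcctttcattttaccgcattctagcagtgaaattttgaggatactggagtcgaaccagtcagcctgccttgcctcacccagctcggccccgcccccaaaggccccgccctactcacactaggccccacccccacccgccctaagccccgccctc
Stab1, chr14:31168642-31168891, minus strand: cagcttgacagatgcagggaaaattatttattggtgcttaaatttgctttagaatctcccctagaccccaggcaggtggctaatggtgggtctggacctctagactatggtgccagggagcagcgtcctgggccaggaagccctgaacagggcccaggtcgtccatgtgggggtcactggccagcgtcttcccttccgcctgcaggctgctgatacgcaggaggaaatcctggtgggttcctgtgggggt

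The motifs were TGCTGAC, a MAF half-site, GAGGAAG, a core of PU.1 sites, and TGACTCA, an AP-1 site, each searched on both strands with no overlap between them in these windows. They were chosen after the values were seen. TGCTGAC was found in 3.81% of 32851 promoter windows of 250 bases and in 1 of the 8 genes described here, Timd4, where it lies on the other strand and starts 45 bases before the start. GAGGAAG was found in 10.6% of all windows and in 1 of the 8, Axl, and TGACTCA in 4.46% of all windows and in 0 of the 8. A match of letters is a description and not a binding site.

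The genes most like each member over the 16 arrays were named by the smallest Euclidean distance between centred log2 levels, a description in which the points share slides and populations. The arrays include monocytes, so for Mertk and Stab1 the distances rest largely on the gap between macrophages and monocytes. For Mertk that gap describes the sort. Mertk and Stab1 were both close to Cd63, a lysosomal tetraspanin (distances 1.97 and 1.51), and Dab2, an endocytic adaptor (2.07 and 1.86), where the median distance to all genes was 12.47 and 12.83. The third neighbour was Slco2b1, an organic anion transporter, for Mertk and the growth factor Igf1 for Stab1. Timd4 was closest to Tcim, the eosinophil chemokine Ccl24 and the leukotriene synthase Ltc4s (2.42 to 2.62, median over all genes 9.50). Gas6 was closest to Chst7, Tns1 and Plekhg5 (1.22 to 1.38, median 7.32), and Axl to Afdn, Trp53i13 and Shtn1 (1.63 to 1.89, median 5.08).

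For the members whose means varied least between populations, the neighbours also varied little and carry less information. They were Wnk2, Ankrd13d and Pramel51 for Tyro3, Sco2, Majin and Ptprq for Pros1, and Ubb, Erfe and Tspyl2 for Mfge8. Among the 8 genes themselves, Tyro3 and Mfge8 had the smallest distance (1.75), followed by Pros1 and Mfge8 (2.08) and by Mertk and Stab1 (2.46).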

How the data were processed

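Each of the 16 scanner files holds spot intensities that the authors deposited from Agilent Feature Extraction 11.5.1.1, per the file headers and the submitters' processing notes; the processed signal is background-subtracted within each array, with no scaling between arrays. Some column headings in all 16 files were shifted against their contents and were read by content. The authors also deposited a table of log2 values; Partek is named in the submitters' processing notes without a step or version. It was used here only to check labels: 0 of its 16 columns correlated best with the array of its own label (at most 0.969, against at least 0.995 for the best match).

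From the processed signal, log2 was taken and each array's 75th percentile (846 to 1740 in signal units) subtracted. Control spots and spots marked as outliers were left out, which removed 110 of 39429 probes. Probes well above background on at least 4 arrays were kept (27643), and the brightest kept probe stood for each gene (22098 genes or features, 17892 with a symbol). limma 3.58.1 in R 4.3.3 fitted 1 mean per population over all 16 arrays with 12 residual degrees of freedom, and p-values were adjusted by Benjamini-Hochberg over all genes, two-sided, at 0.05. "At least" folds set a group's mean against the lowest signal well above background on each array of the dim group. The number of arrays limits the precision.

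Replicate numbers are slides, per the file headers. Deviations from the group means correlated at 0.137 to 0.637 between arrays of the same number (24 pairs, median 0.341) and at -0.534 to 0.491 between arrays of different numbers (72 pairs, median -0.189), so a fit with the slide as a block was read beside the one without it. Deviations cancel out within each population, so a positive correlation within slides by itself pushes the correlation between slides below zero. The gap between the medians therefore overstates the slide effect. Alternatives covered background correction, scaling, the filter, several probes of a gene, array weights, the arrays fitted and leaving out each array. The fit was tested on simulated data for CCR2+ minus MHC-IIHi macrophages over 22098 genes, where it recovered 33% of genes changed by 1 and 74% of those changed by 2 on the log2 scale, with 9 false calls. The simulation changed 200 genes and drew independent noise for each array, with no slide effect. Its rates therefore need not hold for the real arrays. The 8 genes, the gene lists, the cell type markers and the tests were chosen with earlier results of these data known. All 8 genes were named, with at most the 4 largest called differences of each list per comparison and the 3 nearest genes of each member. Ly6c2 and Hbb-b1 from the lists were not found on the array under these symbols, and some listed genes are not reported here. RefSeq gene positions and promoters on GRCm38.p6 matched all 8 genes.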

Additional observations from a re-analysis of the deposited data

Results flagged for a closer look

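Of 36 sets of 4 arrays (9 probes in 4 populations), 2 had an array whose gap to the nearest other array as a share of the set's range was over Dixon's 95% critical value, and chance flags about 1 set in 20. Timd4 in MHC-IIHi replicate 4 was -0.66, against -0.33 to -0.27 on the other arrays (a gap of 0.843 of the range). The dim Tyro3 probe A_55_P2038247 in MHC-IIHi replicate 3 was -4.73, against -5.65 to -5.50 (0.84 of the range), and it was not well above background on any array.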

How the results depend on the processing

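Of 24 called differences among the 8 genes, 19 kept their direction and their call under all 17 alternatives run for each, and 5 lost the call under at least 1. The number of genes called over the whole array moved more. For CCR2+ minus MHC-IIHi macrophages it was 276, against 173 with median scaling, 947 with array weights, 555 with the replicate block and 182 with only these populations fitted, and 153 to 218 without 1 array. For CCR2+ minus MHC-IIlo macrophages it was 611, against 381, 1216, 1259 and 333 in the same order of settings. For MHC-IIHi minus MHC-IIlo macrophages it was 15, against 4, 91, 76 and 0, and 0 to 18 without 1 array (864 genes at an unadjusted p under 0.05). Against monocytes it was 4796 for CCR2+ macrophages, 8589 without the filter on dim probes and 7469 with the replicate block, and 4714 for MHC-IIlo macrophages, 7120 with the block.

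Called differences that were lost were Stab1 for CCR2+ minus MHC-IIHi with median scaling (-1.15; -1.33 to -1.12 without 1 array), Axl for CCR2+ minus MHC-IIlo with median scaling (1.42) and with only these populations (1.40; 1.16 to 1.68 without 1 array), Axl for MHC-IIlo minus monocytes with median scaling (1.05) and with only these populations (1.13; 0.84 to 1.31 without 1 array), Mfge8 for MHC-IIHi minus monocytes with only these populations (0.69; 0.60 to 0.81 without 1 array) and Timd4 for CCR2+ minus monocytes with normexp (0.37). Gained were Axl for MHC-IIHi minus MHC-IIlo with array weights (1.28) and the replicate block (1.25), Mfge8 for CCR2+ minus monocytes with normexp (0.60) and quantile normalization (0.68), and Pros1 for MHC-IIlo minus monocytes (1.02) without the filter, with a stricter filter, with the mean of probes and with only these populations. The replicate block changed no other call of the 8 genes.

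All reversals were of differences that were not called. Without 1 array these were Axl for CCR2+ minus MHC-IIHi (-0.09 to 0.29), Tyro3 for CCR2+ minus MHC-IIlo (-0.03 to 0.22), for MHC-IIHi minus monocytes (-0.26 to 0.09, reversed values 0.05, 0.07 and 0.09) and for MHC-IIlo minus monocytes (-0.04 to 0.30), and, for MHC-IIHi minus MHC-IIlo, Mertk (-0.43 to 0.10, reversed values 0.04 and 0.10) and Mfge8 (-0.15 to 0.09, reversed values 0.05 and 0.09). Array weights reversed Pros1 for MHC-IIHi minus MHC-IIlo (0.18) and Tyro3 for MHC-IIHi minus monocytes (0.16), and normexp reversed Tyro3 for MHC-IIlo minus monocytes (-0.03). Leaving out an array leaves fewer samples, fitting only 2 populations leaves fewer degrees of freedom, and otherwise the cause was not tested. Normexp moved the median of all genes to -0.25, -0.21 and -0.22 against monocytes in CCR2+, MHC-IIHi and MHC-IIlo macrophages, and median scaling moved it to -0.15, -0.15 and -0.13. With normexp the higher share of calls was 30.2%, 35.4% and 34.1%, against 45.9%, 46.8% and 47.3%, and 88.2% against 73.3% for MHC-IIHi minus MHC-IIlo macrophages. The alternative within scan dates was not run, because all arrays share 1 date. Signal near background limits the size of the Timd4, Mertk and Stab1 differences from monocytes.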
